A study of Equus caballus with 6 samples.

Results

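Zinc finger genes named ZNF followed by a number were followed across the 2 tissues of the horse (Equus caballus) blastocyst on day 8. Members were the rows of the deposited table whose gene symbol is ZNF, digits and at most 1 further letter, which gave 248 of 12270 rows. A further 4 rows, 1 of ZNF135 and 3 of ZNF709, carry a trailing space in their symbol and were left out by this rule. RNA came from 3 inner cell mass (ICM) libraries, numbered 15, 22 and 25, and 3 trophectoderm (TE) libraries, numbered 16, 23 and 24. All blastocysts developed in vivo in superovulated mares and were treated with Pronase, a protease mix. TE, the outer epithelium that founds the placenta, was cut away mechanically. ICM, the inner cells that found the embryo and yolk sac, was freed of remaining outer cells by immunosurgery (lysis with antibody and complement). Tissue and isolation method therefore cannot be told apart. Neither breed nor mare is given in the labels, and nothing there pairs an ICM with a TE.

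Most ZNF genes encode proteins with tandem C2H2 fingers, each a short fold in which 2 cysteines and 2 histidines hold a zinc ion and a few side chains read DNA bases. The largest subfamily carries a KRAB domain, which recruits the scaffold protein TRIM28 (KAP1) and, through it, the histone methyltransferase SETDB1, heterochromatin protein 1 and histone deacetylases. In early embryos KRAB zinc finger proteins are known for silencing transposable elements and for keeping the DNA methylation of imprinted genes. KRAB genes arose by tandem duplication and lie in clusters of similar copies, so that reads may be shared between copies. The ZNF symbol also covers proteins with other tasks, among them the spindle protein ZNF207, the ribosome quality control ligase ZNF598 and the promoter activator ZNF143, so the members are called ZNF genes here rather than repressors. Whether a member represses was not measured.

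ZNF genes were expressed at low levels in both tissues. Levels are the deposited RPKM, in which reads are divided by gene length and library depth. The median of the mean level over the 6 libraries was 2.08 RPKM for the 248 ZNF genes and 3.76 RPKM for all rows. ZNF genes took 0.825%, 0.725% and 0.570% of the reads in the table in ICM 15, 22 and 25, and 0.684%, 0.680% and 0.693% in TE 16, 23 and 24. The 3 TE libraries were nearly equal, and the ICM libraries lay on both sides of them. At 1 RPKM or more, 184, 195 and 140 ZNF genes were detected in ICM 15, 22 and 25, against 184, 167 and 183 in TE. ICM 25 was lowest in both measures. Library totals over the table ran from 6526212 to 10686659 reads. The median ZNF gene had 55.5 reads in ICM 25 and 66.5 to 123.5 in the other libraries, so that counting error is a visible part of many single values.

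**Figure D1:**
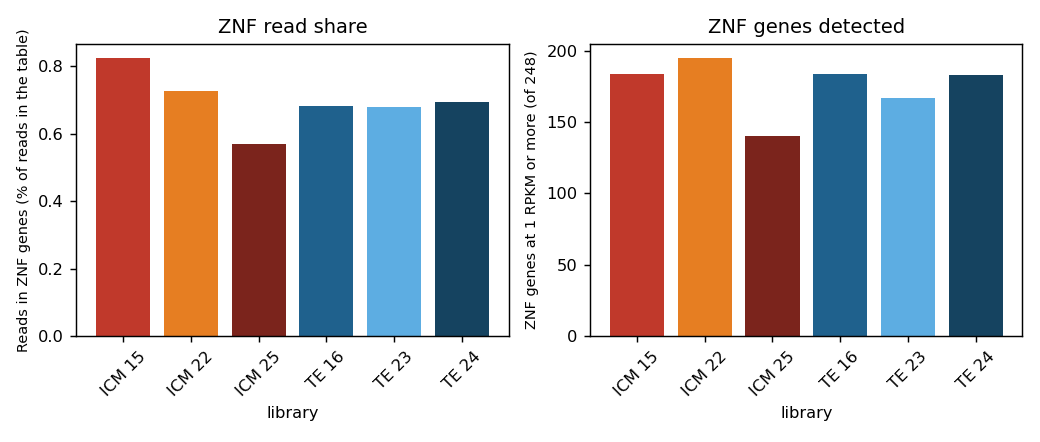
Left, reads in ZNF genes as a percent of all reads in the deposited table, and right, number of the 248 ZNF genes at 1 RPKM or more, with 1 bar per library (ICM in reds and orange, TE in blues). ICM 25 has the lowest bar in both panels, at 0.570% and 140 genes.

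ICM 25 was also the lowest or highest ICM library in most sums of cell type markers, though not in that of trophectoderm. Summed over 10 epiblast markers in the table (the pluripotent part of the ICM), it held 66.8 RPKM, where the highest ICM library held 173 and the TE libraries 52.1 to 79.4. The sum hides single genes. For 5 of the 8 epiblast markers tested every ICM library, ICM 25 included, was above every TE library, where 6.81% of all genes were so. For 0 the reverse held (17.8% of all genes). ICM 25 was the lowest of the 6 libraries for 0 of these 8 (50.9% of all genes). Among the ICM libraries it was the lowest for 5 of the 8. For 10 trophectoderm markers the sums were 52.8 to 90.6 RPKM in ICM (60.7 in ICM 25) and 168 to 209 in TE, and for 12 hypoblast markers 32.4 to 99.3 RPKM in ICM, lowest in ICM 25, and 30.4 to 41.9 in TE. Of the 11 hypoblast markers tested, 4 had every ICM library above every TE library. ICM 25 was the lowest of the 6 libraries for 6 of these 11 (54.5%). Of the 9 white blood cell markers 3 were in the table, at a summed 0.478 to 4.75 RPKM in ICM, highest in ICM 25, and 0.744 to 1.19 in TE. Cumulus and granulosa cell markers (2 of 8 in the table) summed to 5.39 to 33.0 RPKM in ICM, highest in ICM 25, and 5.67 to 19.2 in TE, and those of uterine epithelium (2 of 7) to 1.52 to 4.05 in ICM, highest in ICM 25, and 2.18 to 5.17 in TE. The 1 red cell gene found, ALAS2, which is not confined to red cells, was at 0.742 to 2.68 RPKM in ICM, lowest in ICM 25, and 0.540 to 1.40 in TE. In such bulk libraries fewer cells of a type and less RNA per cell cannot be told apart, and the part of cell makeup in the values below was not tested.

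The most abundant member, ZNF207 (BuGZ), which binds microtubules and brings the checkpoint protein BUB3 to kinetochores, stood at 176, 159 and 113 RPKM in ICM 15, 22 and 25 and 138, 142 and 172 RPKM in TE 16, 23 and 24. It alone took 9.39% to 11.5% of all ZNF reads, and its tissues overlapped. The log2 difference of -0.03 (SE 0.26, limma adjusted p = 0.97) was 0.16 on rescaling by the median of ratios. ZNF106, an RNA-binding protein, followed at 50.5, 42.8 and 17.6 RPKM in ICM and 43.4, 42.3 and 52.4 in TE. ICM 25 alone lay below the other 5 libraries, and the log2 difference of -0.43 (SE 0.38, limma adjusted p = 0.62) was 0.02 without it.

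Next came ZNF706, a small protein with a single finger that restrains Klf4 in mouse embryonic stem cells. It stood at 12.7, 31.6 and 19.3 RPKM in ICM and 35.7, 26.3 and 33.8 RPKM in TE, overlapping through ICM 22 (adjusted p = 0.37). ZNF532, which joins ZNF592 and ZNF687 in complexes with the chromatin reader ZMYND8, was at 26.8, 27.6 and 17.5 RPKM in ICM and 24.0, 28.6 and 28.9 in TE. ZNF217, which recruits the CtBP and LSD1 corepressors, was at 25.9, 23.6 and 21.2 RPKM in ICM and 19.0, 18.8 and 22.0 in TE. ZNF217 was the steadiest of these in ICM, including ICM 25. ZNF146, which consists almost wholly of fingers, stood at 32.6, 21.2 and 10.9 RPKM in ICM and 21.8, 16.8 and 16.9 in TE. ZNF425 was at 29.8, 24.3 and 9.0 RPKM in ICM and 15.5, 14.7 and 13.9 in TE. Both spread 3-fold or more within ICM, with ICM 15 highest and ICM 25 lowest of all 6. ZNF259 (ZPR1), whose zinc fingers are of another kind, was at 16.7, 18.9 and 11.2 RPKM in ICM and 14.0, 14.3 and 16.2 in TE. In all, 17 ZNF genes (9.19% of those tested) had a mean above 10 RPKM, where 35.3% of all genes tested did.

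**Figure D2:**
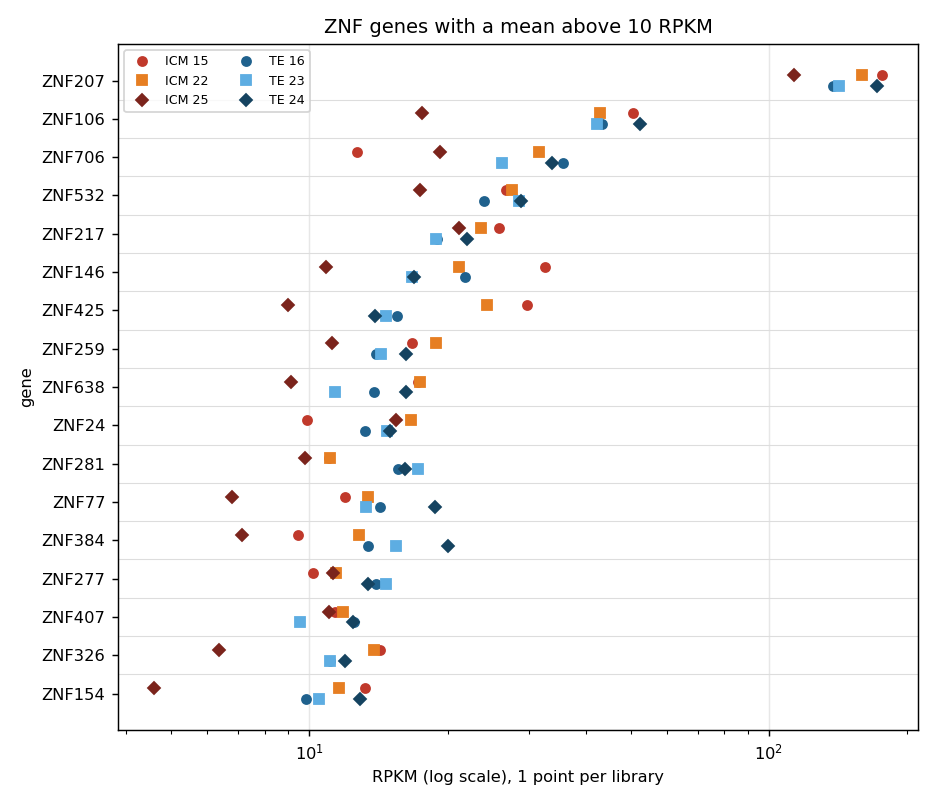
Level in RPKM (log axis) of the 17 ZNF genes with a mean above 10 RPKM, highest at the top, with 1 point per library. ZNF207 lies far to the right of the rest, and ICM 25 is the leftmost point in most of the lines.

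ICM was compared with TE to see which ZNF genes differ between the tissues as isolated. Testing covered the 9436 genes, 185 of them ZNF, that reached 1 RPKM in 3 or more libraries, on log2(RPKM + 1), a scale that understates changes of low genes. A log2 difference is ICM minus TE. Among the ZNF genes 1 of 185 was called higher in TE and 0 higher in ICM (limma, adjusted p under 0.05), where 0.933% of all genes tested were called in each direction and 1.87% in either. At an unadjusted p under 0.05 there were 18 ZNF genes (4 with ICM and 14 with TE higher), or 9.73% where all genes gave 16.9%. The values of the tissues did not overlap for 9 ZNF genes with ICM higher and 29 with TE higher, or 4.86% and 15.7%, where all genes gave 6.81% and 17.8% (24.6% in either direction, against 20.5% of ZNF genes). The ZNF shares lay below those of all genes in each of these counts, by little in the counts without overlap. The ZNF genes tested also had lower levels, with a median of 2.95 RPKM against 6.04 for all genes tested. Genes of equal level were not compared, and the differences between the shares were not tested. With limma voom on the recovered reads 0 ZNF genes were called, where 1.90% of all genes were.

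The called gene was ZNF385A, a protein with fingers of a type that binds double-stranded and messenger RNA, known as a partner of p53. ZNF385A stood at 0.352, 1.68 and 1.14 RPKM in ICM 15, 22 and 25 (10, 58 and 32 reads) and at 4.42, 4.86 and 4.83 RPKM in TE 16, 23 and 24 (134, 108 and 142 reads). Every TE library was above every ICM library and the TE libraries were close together. The means were 1.06 ± 0.667 and 4.70 ± 0.243 RPKM (SD, n = 3 each), 4.45-fold higher in TE (log2 ICM minus TE -1.53, SE 0.29, limma adjusted p = 0.044). The build of the deposited coordinates is not given in the sources used here, and in them ZNF385A lies on chromosome 6 at 71175087 to 71187992. The call was lost without ICM 15 (adjusted p = 0.088) and without TE 16, 23 or 24 (0.19, 0.23 and 0.18). It was also lost with a pseudocount of 0.1 (0.077), no filter on low values (0.056), rescaling by the median of ratios (0.057) and voom (0.075), while the difference kept its sign. Its paralog ZNF385B, below the filter on low values, had another pattern. It was at 5.42 RPKM in ICM 25 (89 reads) and at 0.0579 to 0.539 RPKM in the other 5 libraries (1 to 9 reads each), so ICM 25 alone carried it.

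Of the ZNF genes without overlap, the largest differences beside that of ZNF385A did not pass the test. On the side higher in ICM, ZNF235, a KRAB zinc finger gene, stood at 11.7, 8.93 and 1.36 RPKM in ICM 15, 22 and 25 (644, 600 and 74 reads) and 1.04, 0.602 and 1.12 RPKM in TE (61, 26 and 64 reads). ICM 15 and 22 were far above TE, while ICM 25 lay just above the highest TE library. Its log2 difference was 1.81 (SE 0.56, limma adjusted p = 0.15), and 2.56 without ICM 25 (adjusted p = 0.0019). ZNF235 lies on chromosome 10 at 15055383 to 15093201, within a cluster of 7 ZNF genes whose other members tested differed by -0.32 to 0.30.

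ZNF584, also a KRAB gene, differed in another manner, being even across the ICM libraries. It stood at 3.97, 3.32 and 4.07 RPKM in ICM (116, 118 and 117 reads) and 1.35, 2.10 and 1.52 in TE (42, 48 and 46 reads). ICM 25 thus sat with the other ICM libraries here (log2 difference 0.86, SE 0.24, limma adjusted p = 0.11). ZNF394, which has both a KRAB and a SCAN domain (the latter pairs zinc finger proteins with each other), was at 1.84, 1.85 and 1.28 RPKM in ICM against 0.806, 0.581 and 0.880 in TE. ZNF271 was at 1.65, 1.34 and 2.76 RPKM against 0.705, 0.937 and 1.02, but its deposited coordinates overlap those of SERPINE2, and with no strand stated the reads of the pair cannot be told apart. ZNF44, a KRAB gene on an unplaced scaffold, was at 4.94, 4.27 and 2.99 RPKM against 2.85, 1.64 and 2.69. None of these 3 passed (limma adjusted p = 0.23, 0.29 and 0.33).

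On the side higher in TE, ZNF19, a KRAB gene, followed ZNF385A, at 2.77, 1.37 and 1.24 RPKM in ICM and 4.45, 3.85 and 5.45 in TE, without overlap (log2 -1.03, SE 0.28, limma adjusted p = 0.11). ZNF564, a KRAB gene of chromosome 7, was at 5.58, 4.53 and 1.09 RPKM in ICM and 10.4, 6.68 and 5.81 in TE. Its difference of -0.99 was -0.48 without ICM 25, so that library carried much of it. ZNF280D, a relative of a fly insulator protein, was at 7.73, 7.19 and 4.90 RPKM in ICM and 9.58, 11.7 and 13.9 in TE (log2 ICM minus TE -0.75, SE 0.26, adjusted p = 0.20). ZNF507 was at 1.52, 2.59 and 0.601 RPKM against 3.33, 3.20 and 2.83. ZNF839 was at 0.310, 1.37 and 0.201 RPKM against 1.69, 1.37 and 2.05, where ICM 22 nearly met TE 23. Neither of these passed (adjusted p = 0.27 and 0.23).

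**Figure D3:**
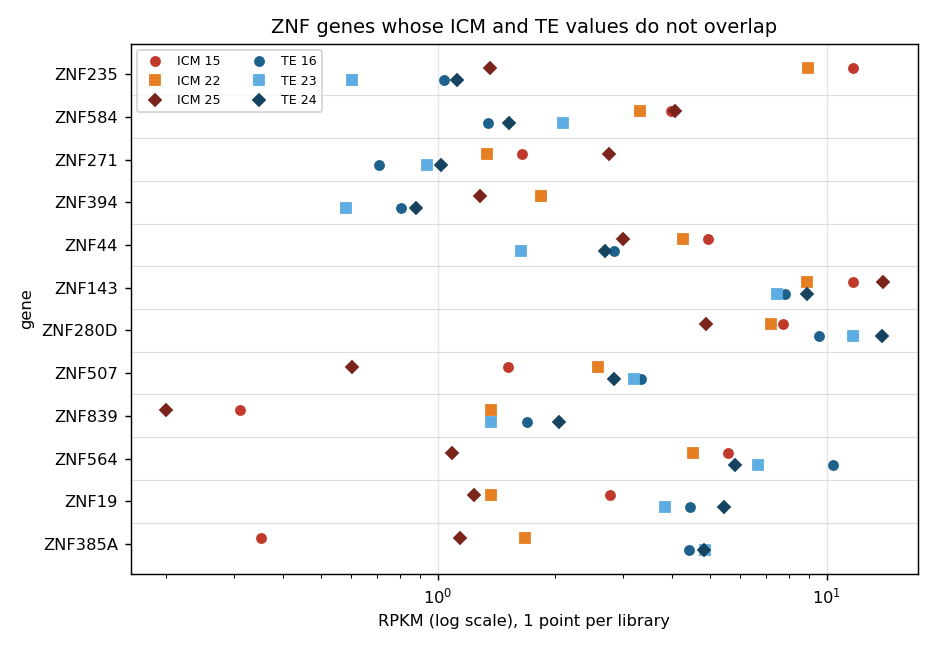
Level in RPKM (log axis) of the 12 ZNF genes with the largest log2 difference in each direction among those whose ICM and TE libraries do not overlap, with 1 point per library, ordered from ICM higher to TE higher. ZNF385A at the bottom is the called gene, and the ICM 25 point of ZNF235 at the top lies beside the TE points.

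Factors linked to pluripotency or early lineages were the highest of the ZNF groups fixed by function, with a median of 8.70 RPKM over 11 genes. Of these, 8 were tested and 0 were called in either direction, where 1.87% of all genes were. Their median log2 difference was -0.04, beside -0.15 over all genes tested, and turned to 0.12 without ICM 25 and 0.13 on rescaling. At an unadjusted p under 0.05 there was 1 (12.5%, against 16.9% of all genes). ZNF281, which binds the pluripotency factors and restrains NANOG, was at 11.1, 11.1 and 9.77 RPKM in ICM and 15.6, 17.3 and 16.1 in TE. All 3 TE libraries were higher, at a small difference (log2 -0.57, SE 0.22, limma adjusted p = 0.23). ZNF143, an activator bound at many promoters, went the other way, at 11.7, 8.92 and 13.9 RPKM in ICM and 7.80, 7.48 and 8.90 in TE (log2 ICM minus TE 0.45, SE 0.25, adjusted p = 0.40).

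The remaining 3 of the 11 did not reach 1 RPKM in 3 libraries and were below the filter. ZNF462, a large zinc finger protein of pluripotent cells and the developing brain, stood at 4.29, 2.75 and 0.530 RPKM in ICM 15, 22 and 25 (848, 661 and 103 reads) and at 0.0522, 0.110 and 0.122 RPKM in TE (11, 17 and 25 reads). Every ICM library held at least 4 times the level of every TE library, and the means differed 26.6-fold, the ICM libraries themselves spreading about 8-fold. Fitted without the filter, its log2 difference was 1.51 (limma adjusted p = 0.12). ZNF423, a cofactor of BMP signalling, was at 0.935, 0.686 and 0.517 RPKM in ICM and 0.213, 0.139 and 0.123 in TE (without the filter, adjusted p = 0.18). Its relative ZNF521 was at 0.535, 1.09 and 0.0176 RPKM against 0.211, 0.121 and 0.234, so ICM 25 lay below TE. ICM 25 was the lowest ICM library for all 3. Of the 8 tested genes of this list it was the lowest ICM library for 3 (37.5%). The same held for 73.0% of ZNF genes tested and 61.7% of all genes tested.

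ZNF genes with chromatin partners showed no call. Of 16, 14 were tested, with 0 called, where 1.87% of all genes were, and 1 at an unadjusted p under 0.05, or 7.14% where all genes gave 16.9%. The median log2 difference of -0.08 turned to 0.10 without ICM 25 and 0.09 on rescaling. The 1 gene was ZNF592, at 3.42, 4.43 and 2.93 RPKM in ICM and 4.93, 6.83 and 6.95 in TE (log2 ICM minus TE -0.66, SE 0.25, limma adjusted p = 0.24). Its partner ZNF687 was at 1.56, 2.24 and 1.69 RPKM against 3.53, 3.02 and 2.48 (adjusted p = 0.34), with no overlap for either, as for 17.8% of all genes with TE higher. ZNF827, which brings the NuRD complex to telomeres, was at 1.85, 1.65 and 0.142 RPKM against 1.96, 2.52 and 2.48, and ICM 25 was over 10-fold below the other ICM libraries. ZNF445, a KRAB protein that guards imprinted loci, was at 1.90, 3.15 and 0.472 RPKM in ICM and 1.05, 1.14 and 1.76 in TE. ZNF274, which brings SETDB1 to other zinc finger genes, was at 1.30, 1.96 and 1.03 RPKM against 1.32, 1.11 and 1.0. Both overlapped between the tissues (adjusted p = 0.86 and 0.79).

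Members acting on RNA, ribosomes or the spindle leaned to TE in sign. Of 16, 15 were tested, ZNF385A was the 1 called (6.67%, against 1.87% of all genes), and 2 of 15 had a log2 difference above 0, where 35.3% of all genes did. Without ICM 25 it was 7 of 15 (49.2% of all genes), and the median went from -0.43 to -0.09. On rescaling by the median of ratios it was 5 of 15 (50.6% of all genes), with a median of -0.24. ZNF330, a nucleolar protein, was at 2.81, 6.60 and 4.37 RPKM in ICM and 6.33, 8.88 and 7.64 in TE. ZNF830, a splicing protein, was at 2.01, 5.30 and 2.35 RPKM against 5.26, 4.26 and 7.02. Both overlapped because ICM 22 reached the TE range (limma adjusted p = 0.31 and 0.35).

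By position, 115 of the 248 ZNF genes lay in 18 clusters of at least 3, counting neighbours whose starts are within 500 kb, and 111 had no ZNF neighbour within that distance. Chromosome 10 held 71 ZNF genes, chromosome 13 held 20 and chromosome 7 held 18. The largest cluster, on chromosome 10 at 26078963 to 28048703, had 20 ZNF genes, of which 16 were tested. Their log2 differences ran from -0.65 to 0.86, 9 of 16 above 0, with a median of 0.04. ZNF584 at the top and ZNF8, a KRAB gene at the bottom (0.776, 1.22 and 0.741 RPKM in ICM against 2.43, 1.47 and 2.12 in TE, limma adjusted p = 0.22), lie near each other at the end of this cluster and had opposite signs. ZNF606, also a KRAB gene of this cluster, was at 4.72, 3.52 and 4.72 RPKM in ICM and 2.54, 3.90 and 2.27 in TE (adjusted p = 0.42). In the second cluster of chromosome 10, at 7307788 to 8817917, 13 of 17 ZNF genes were tested, 3 were above 0 and the range was narrower, from -0.45 to 0.15 with a median of -0.27. Clustered ZNF genes had a lower median level than those outside clusters (1.73 against 2.31 RPKM), and 43.2% of those tested had a log2 difference above 0, against 21.6% outside. Without ICM 25 these shares were 61.4% and 45.4%. Copies within a cluster can share reads, and these figures describe the list without a test.

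ICM 25 held low values of most ZNF genes. It was the lowest of the 6 libraries for 122 of the 185 ZNF genes tested, or 65.9%, where it was the lowest for 50.9% of all genes tested. Relative to the mean of ICM 15 and 22, ICM 25 lay lower by over 1 log2 unit for 50 ZNF genes (27.0%, against 18.8% of all genes) and higher by over 1 unit for 0 (against 3.98% of all genes). The median shift was -0.57 for ZNF genes and -0.44 for all genes. These counts and shifts are on the deposited RPKM and were not repeated after rescaling. By the median of ratios the scale factor of ICM 25 was 0.740, against 1.01 to 1.15 in the other libraries. Within ICM the median SD of a ZNF gene was 0.42 log2 units, and 0.21 between ICM 15 and 22 alone, close to the 0.19 within TE. Over all genes tested the same medians were 0.44, 0.25 and 0.19, so this spread was not particular to ZNF genes.

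Leaving out ICM 25 moved the centre of the ZNF genes from a median log2 difference of -0.19 to 0.02, as it moved that of all genes from -0.15 to -0.01. The share above 0 went from 31.9% to 53.0% of ZNF genes, and from 35.3% to 49.2% of all genes. Rescaling by the median of ratios gave medians of -0.05 and 0.01. From the 10th to the 90th percentile the ZNF differences ran from -0.60 to 0.31 with all libraries, and those of all genes from -0.71 to 0.48, so ZNF genes spread less on this scale, on which their low levels also count. The fit without ICM 25 called 9 ZNF genes, 8 with ICM and 1 with TE higher, or 4.86% in all, where it called 11.5% of all genes (5.89% with ICM and 5.62% with TE higher).

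**Figure D4:**
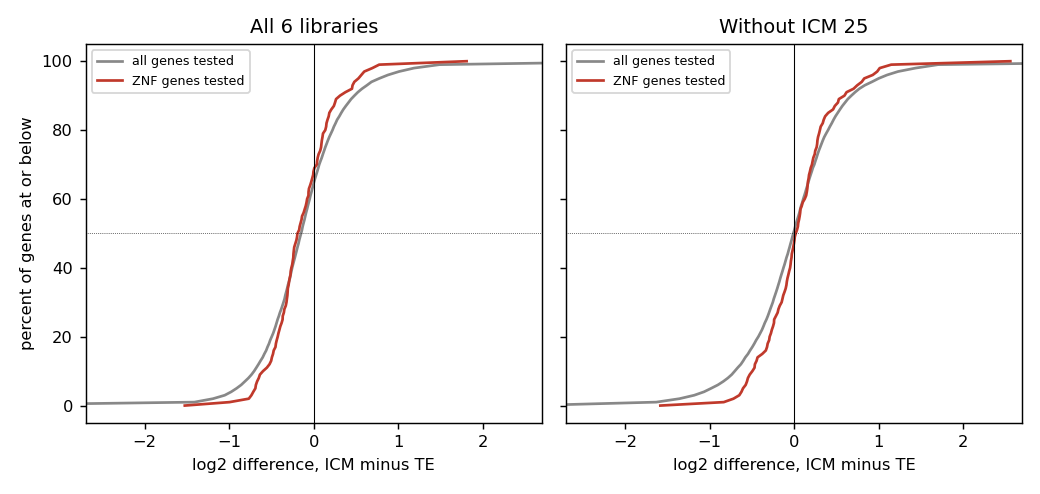
Percent of genes (vertical axis) at or below each log2 difference of ICM minus TE (horizontal axis), for the 185 ZNF genes tested (red) and all 9436 genes tested (grey), with all 6 libraries on the left and without ICM 25 on the right. The horizontal axis is cropped at 2.7 units on either side. The red curve is steeper than the grey one, and its median moves from -0.19 to 0.02 when ICM 25 is left out.

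The 8 ZNF genes called higher in ICM without ICM 25 all lay closer in ICM 25 to the TE libraries than to ICM 15 and 22. Their choice favours this pattern, since they passed only when ICM 25 was left out of the unweighted fit. It is therefore a description of the chosen genes and no separate result. The other genes of this paragraph than ZNF235 and ZNF425 were chosen after their values were seen. ZNF608, a relative of the transcription regulator ZNF609, was at 3.43, 3.11 and 0.832 RPKM in ICM and 0.816, 0.889 and 1.10 in TE (log2 ICM minus TE without ICM 25 1.14, limma adjusted p = 0.016). ZNF396, a SCAN domain gene, was at 7.65, 7.94 and 2.33 RPKM against 3.18, 3.28 and 3.74 (1.0, adjusted p = 0.017). In the first ICM 25 lay within the TE range, in the second below it. The others were ZNF425, ZNF300, ZNF512, ZNF530 and ZNF555, with differences of 0.83, 0.96, 1.02, 0.96 and 1.17. With all 6 libraries none of the 8 passed in the unweighted fit. Limma with library weights called 2 of them, ZNF235 and ZNF608, and ZNF385A (3 of 185, where 8.05% of all genes were called).

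The authors' deposited table, made with DESeq, gives 22 of the 248 ZNF genes an adjusted p under 0.05, or 8.87%, where it gives 16.6% of all rows one. Of the 22, 15 were higher in ICM and 7 in TE. The limma fit leaned the other way, with 4 higher in ICM and 14 in TE at an unadjusted p under 0.05. That fit took the 185 ZNF genes above the filter and the deposited RPKM, where DESeq took normalized counts of all 248. These counts are therefore not directly comparable, and what lies behind the opposite directions was not tested. In the authors' deposited table ZNF462 had the lowest adjusted p among ZNF genes (6.5e-81), followed by ZNF235 (7.02e-30), both genes with a wide spread between the ICM libraries.

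Among the 63 ZNF genes below the filter, the highest mean was 2.52 RPKM in ICM, that of ZNF462, and 1.31 in TE, and the median library held 22 reads of such a gene. ZNF843 was the only member listed at 0 reads in all libraries of a tissue. It had 16, 0 and 22 reads in ICM 15, 22 and 25 and 0 in each TE library. With 3 reads over the whole TE group as the floor, the ICM mean was at least 12.3-fold higher. This floor covers counting error in TE only. The spread within ICM is not covered, and ICM 22 was at 0 as well, so the figure is no lower limit for a tissue difference.

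The cofactors through which KRAB proteins silence chromatin were far more abundant than the ZNF genes, with a median of 13.6 RPKM over 33 genes, 32 of them tested. None was called in either direction (limma, 0 of 32), where 1.87% of all genes were. At an unadjusted p under 0.05 there were 4 (1 with ICM and 3 with TE higher), or 12.5% where all genes gave 16.9%. The median log2 difference was -0.05, and turned to 0.14 without ICM 25 and 0.13 on rescaling. With limma voom on reads 1 cofactor, MORC3, was called. TRIM28, the scaffold, stood at 78.6, 74.0 and 35.7 RPKM in ICM and 54.0, 53.8 and 63.5 in TE. SETDB1, which writes the silencing histone mark, was at 5.24, 6.54 and 3.96 RPKM against 4.49, 5.34 and 5.86. The TE libraries of both fell inside the range of the ICM libraries (adjusted p = 0.95 and 0.99), and ICM 25 was lowest of the 6 for both.

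MORC3, a nuclear body ATPase that silences repeats, had the smallest p of the cofactors. It stood at 15.4, 13.9 and 10.8 RPKM in ICM and 6.44, 6.22 and 6.79 in TE, with no overlap and ICM 25 on the ICM side (log2 difference 0.93, SE 0.24, limma adjusted p = 0.091). On the TE side UHRF1, which brings maintenance methylation to replicated DNA, was at 1.07, 2.12 and 0.887 RPKM in ICM and 3.39, 2.44 and 3.41 in TE (adjusted p = 0.18). RCOR1, the CoREST scaffold, was at 3.85, 6.81 and 5.78 RPKM against 7.64, 8.81 and 16.8 (adjusted p = 0.25).

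ZFP57, the KRAB protein that protects imprints, and the de novo methyltransferase DNMT3B split the ICM libraries sharply. ZFP57 was at 6.17, 6.87 and 0.883 RPKM in ICM 15, 22 and 25 and 3.12, 2.22 and 3.10 in TE (limma adjusted p = 0.80). DNMT3B, singled out after its values were seen, was at 188, 180 and 18.6 RPKM in ICM and 75.5, 47.7 and 87.2 in TE (adjusted p = 0.87). For both, ICM 15 and 22 lay above all TE libraries and ICM 25 below all of them. Without ICM 25, 6 of 32 cofactors (18.8%) were called higher in ICM and 0 in TE, where 5.89% and 5.62% of all genes were. The 6 were MORC3, CBX1, HDAC2, TRIM24, DNMT3B and ZFP57, itself a KRAB protein but counted in the cofactor list. Their log2 differences then ran from 0.75 for HDAC2 to 1.42 for DNMT3B.

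**Figure D5:**
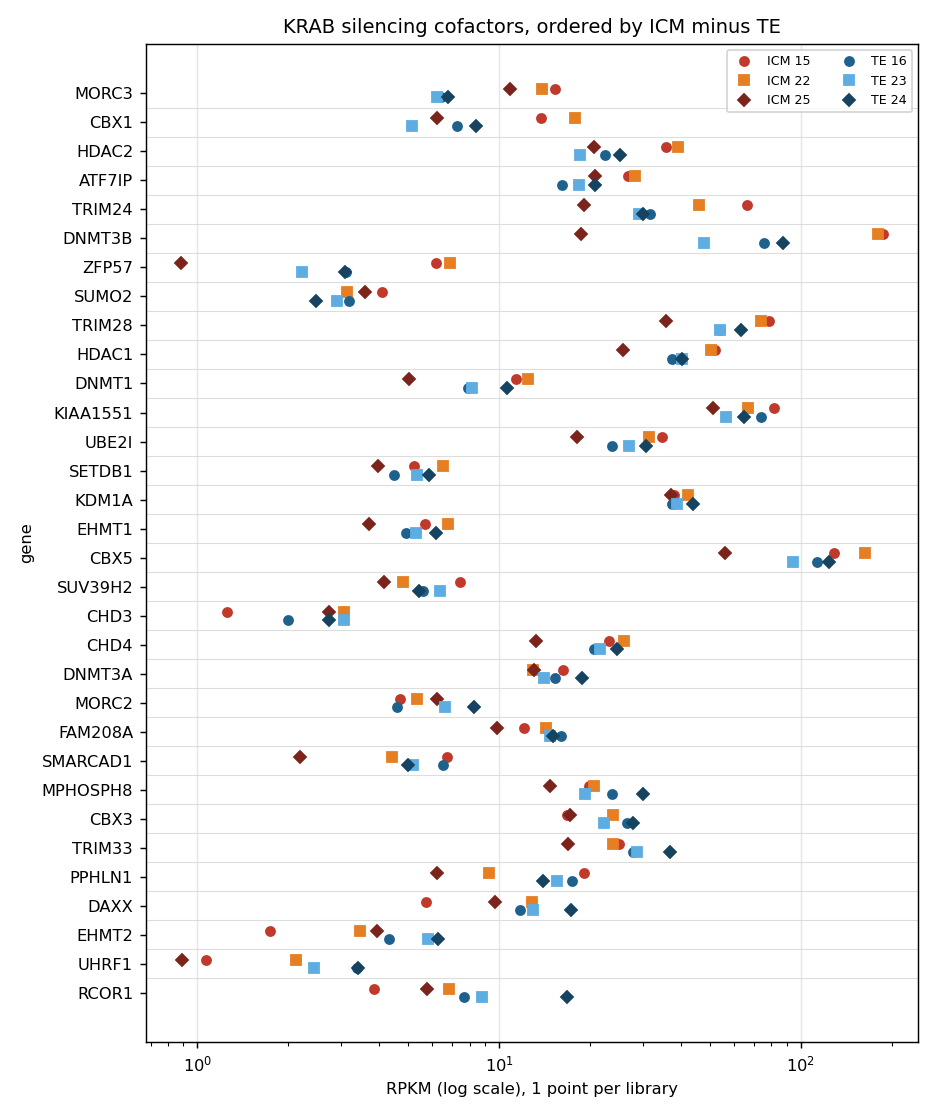
Level in RPKM (log axis) of the 32 tested cofactors of KRAB silencing, with 1 point per library, ordered by log2 difference from ICM higher at the top to TE higher at the bottom. MORC3 at the top has the largest difference with ICM higher, and the ICM 25 points of DNMT3B, ZFP57 and TRIM28 lie left of all other points of the same gene.

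The most similar genes under other symbols, the 55 named ZFP, ZBTB, ZSCAN or ZKSCAN, had a like level (median 2.12 RPKM). Of these, 41 were tested, 0 were called in either direction (limma, against 1.87% of all genes), 4 had an unadjusted p under 0.05 (9.76%, against 16.9%), and the median log2 difference was -0.14, beside -0.19 for the ZNF genes. The tissues did not overlap for 12 of the 41 (29.3%, 2 with ICM and 10 with TE higher), where all genes gave 24.6% and ZNF genes 20.5%. ICM 25 was the lowest library for 51.2% of the relatives tested, against 65.9% of the ZNF genes and 50.9% of all genes. It lay over 1 log2 unit below the mean of ICM 15 and 22 for 26.8% of them, close to the 27.0% of ZNF genes and above the 18.8% of all genes. For the KRAB cofactors these shares were 62.5% and 28.1%. The median shift of ICM 25 from ICM 15 and 22 was -0.39 log2 units for the relatives and -0.49 for the cofactors, where all genes gave -0.44. Low values in ICM 25 were thus common over all genes on the deposited scale. For the relatives the share lowest in ICM 25 was near that of all genes. The differences between these lists were not tested, and ZFP57 is counted in both the relatives and the cofactors.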

How the data were processed

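One table of 6 libraries was analysed. The authors deposited RPKM per library, per the file headers, and, from DESeq (named with FastQC in the submitters' processing notes, without version), a mean normalized signal (baseMean), the fold as a ratio, its log2 value and p-values. The authors' residual variance score was deposited too and not used. For the aligner, counter, strand, build and annotation: not given in the sources used here.

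RPKM and baseMean together gave back whole reads (100% of values up to 1000 reads within 0.001 of a whole number in every library). The main test was limma 3.58.1 (R 4.3.3; eBayes with trend, two-sided) on log2(RPKM + 1), for the 9436 genes reaching 1 RPKM in 3 or more libraries, with Benjamini-Hochberg adjustment and a threshold of 0.05. The fit was tested on simulated data with the same spread in both tissues and no deviating library. That test therefore cannot show how the fit behaves with the wider spread of these ICM libraries. The labels do not state that libraries are separate animals, and p-values then reflect only how these libraries vary, which may be technical. The cDNA was amplified and carries no molecular identifiers, so counting error is a lower limit.

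Members and gene lists were chosen with earlier results of these data known. Genes were named by rule: called members, the 6 largest differences without overlap in each direction, the 8 highest means, the 3 smallest p in each role list and in the largest cluster, TRIM28, SETDB1, ZFP57 and the 3 other cofactors with the smallest p. A planned grouping by KRAB domain found in protein sequences was not run, and KRAB is stated as background. Other genes were named after their values were seen. Of 248 symbols, 206 are in NCBI's RefSeq horse table (assembly TB-T2T), used for names only. Alternatives were another pseudocount, filters, rescaling, library weights, voom and leaving out each library.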

Additional observations from a re-analysis of the deposited data

How the results depend on the processing

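The 1 ZNF call became 0 with median of ratios rescaling, voom on recovered reads, a pseudocount of 0.1, a filter of 5 RPKM (which drops ZNF385A) or none, and 3 with library weights. It ranged from 0 to 9 when each library was left out, with 0 without ICM 15 or any TE library and 9 without ICM 25. ZNF385A kept its sign in each fit that tested it. Calls over all genes went from 176 to 112 (pseudocount of 0.1), 114 (no filter), 81 (filter of 5 RPKM) and 760 (library weights), and from 0 to 1086 when each library was left out. Rescaling called 128 genes higher in ICM and 64 in TE, where the deposited scale gave 88 and 88. The cofactor count of 0 became 1 with rescaling and with voom, 2 with library weights, and 0 to 6 when each library was left out. The median ZNF difference ran from -0.28 (without ICM 22) to 0.02 (without ICM 25). Of 34 named genes tested, 8 turned sign under at least 1 alternative: SETDB1, TRIM28, ZFP57, ZNF106, ZNF146, ZNF207, ZNF259 and ZNF532. The causes of these shifts were not tested. No paired analysis was possible because the tissues share no replicate number. Read depth (a median of 55.5 to 123.5 reads per ZNF gene and library) and the spread between libraries both limit the precision, and their parts were not tested.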
